A study of Arabidopsis thaliana with 12 samples.

Results

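Untreated seedlings of the Arabidopsis thaliana mutant gun1-101 were compared with untreated wild-type seedlings (Col-0). The comparison used 6 of the 12 arrays of the series, 3 per genotype, chosen by the labels for genotype and treatment. The other 6 arrays were of the same genotypes on 0.5 mM lincomycin, an inhibitor of plastid translation, and entered the fit only to estimate the spread and to set each gene's genotype difference with lincomycin beside that without it. In all 4 groups seeds were stratified for 2 days, lit for 8 h, kept dark for 5 days and then lit continuously for 2 days, so whole seedlings 7 days old were harvested. gun1-101 is a single mutant allele, and whole seedlings mix all tissues, so that fewer cells of a type and less RNA per cell cannot be told apart. The level of GUN1 is not analysed here and gives no check of the genotype labels.

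GUN1 is a pentatricopeptide repeat protein of the chloroplast. Chloroplasts report their state to the nucleus, and when plastid translation or pigment synthesis is blocked the nucleus normally lowers transcripts of photosynthesis proteins. Mutants of the genomes uncoupled (GUN) class keep a part of these transcripts under such a block, and GUN1 is the member of the class that acts in the response to inhibited plastid gene expression. The question here is the baseline: which transcripts differ between mutant and wild type when no inhibitor is present.

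Values are log2 expression values, in which 1 unit is a 2-fold difference. A gene was called when its limma p, adjusted by the Benjamini-Hochberg method over the 16548 genes tested, was under 0.05. Array medians over these genes lay between 6.59 and 6.70. Col-0 control replicate 1 stood apart from its group. Its mean correlation across genes was 0.9786 with the other Col-0 controls and 0.9894 with the gun1-101 controls, while the other Col-0 controls correlated at 0.9911 with each other. Over the 7083 probe sets listed before any with a gene, its median was 5.37, the other Col-0 controls lay at 4.50 and the gun1-101 controls lay between 4.88 and 5.10. Results are therefore given with and without this array.

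With all arrays, 3 genes were called (0.0181% of those tested), 2 higher (0.0121%) and 1 lower (0.00604%) in gun1-101, and each differed by more than 2-fold. Leaving out Col-0 control replicate 2 or 3, or any single gun1-101 control, left 0 genes called by limma, with between 1074 and 1572 genes at an unadjusted p under 0.05. At an unadjusted p under 0.05 the full fit had 2105 genes (12.7%), of which 1023 (6.18% of all) had a positive difference. Without Col-0 control replicate 1, 1054 genes were called (6.37%), 428 higher (2.59%) and 626 lower (3.78%), and all 3 genes called with every array were among them.

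The highest of the 3 was Hsp70-2 (AT5G02490), a heat shock protein of the cytosolic Hsp70 family, whose members bind unfolded protein. In log2 units the arrays read 6.22, 6.02 and 5.86 in the Col-0 controls and 8.41, 8.22 and 8.29 in the gun1-101 controls. All 3 mutant arrays lay about as far above the wild type, and Col-0 control replicate 1 lay with its own group. The level was 4.83-fold higher in the mutant (log2 difference 2.27, SE 0.23, limma adjusted p = 0.00934), from 6.03 ± 0.18 to 8.31 ± 0.093 (SD, n = 3). Without Col-0 control replicate 1 it was 2.37 (SE 0.26, adjusted p = 0.00588). Leaving out Col-0 control replicate 2 or 3, or any of the 3 gun1-101 controls, moved the adjusted p to between 0.0686 and 0.0944, and the call was lost.

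The second gene was AT5G66150, for which the gene table gives no name beyond the locus tag. It read 4.56, 4.01 and 4.21 in the Col-0 controls and 5.38, 5.78 and 5.57 in the gun1-101 controls, so the groups did not overlap. The difference was 1.32 (SE 0.16, limma adjusted p = 0.0219), which is 2.49-fold. The third gene, AT5G62360, also without a name in the table, had values of 3.68, 4.30 and 4.19 in the Col-0 controls and 2.32, 2.70 and 2.57 in the gun1-101 controls. It was lower in the mutant (log2 difference -1.53, SE 0.19, adjusted p = 0.0219). In gun1-101 it lay at the dim end of the arrays, where 3.05% of genes had a lower mean, and whether it was detected there is not given, so the size of this difference is limited. Both genes kept their call when Col-0 control replicate 1 was left out, at an adjusted p of 0.0054 for AT5G66150 and of 0.0053 for AT5G62360. In a fit to the 6 control arrays alone these 2 genes were at adjusted p = 0.232 and 0.181, while Hsp70-2 was at 0.00643. All 3 locus tags are of chromosome 5, which held 3810 of the genes tested.

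**Figure D1:**
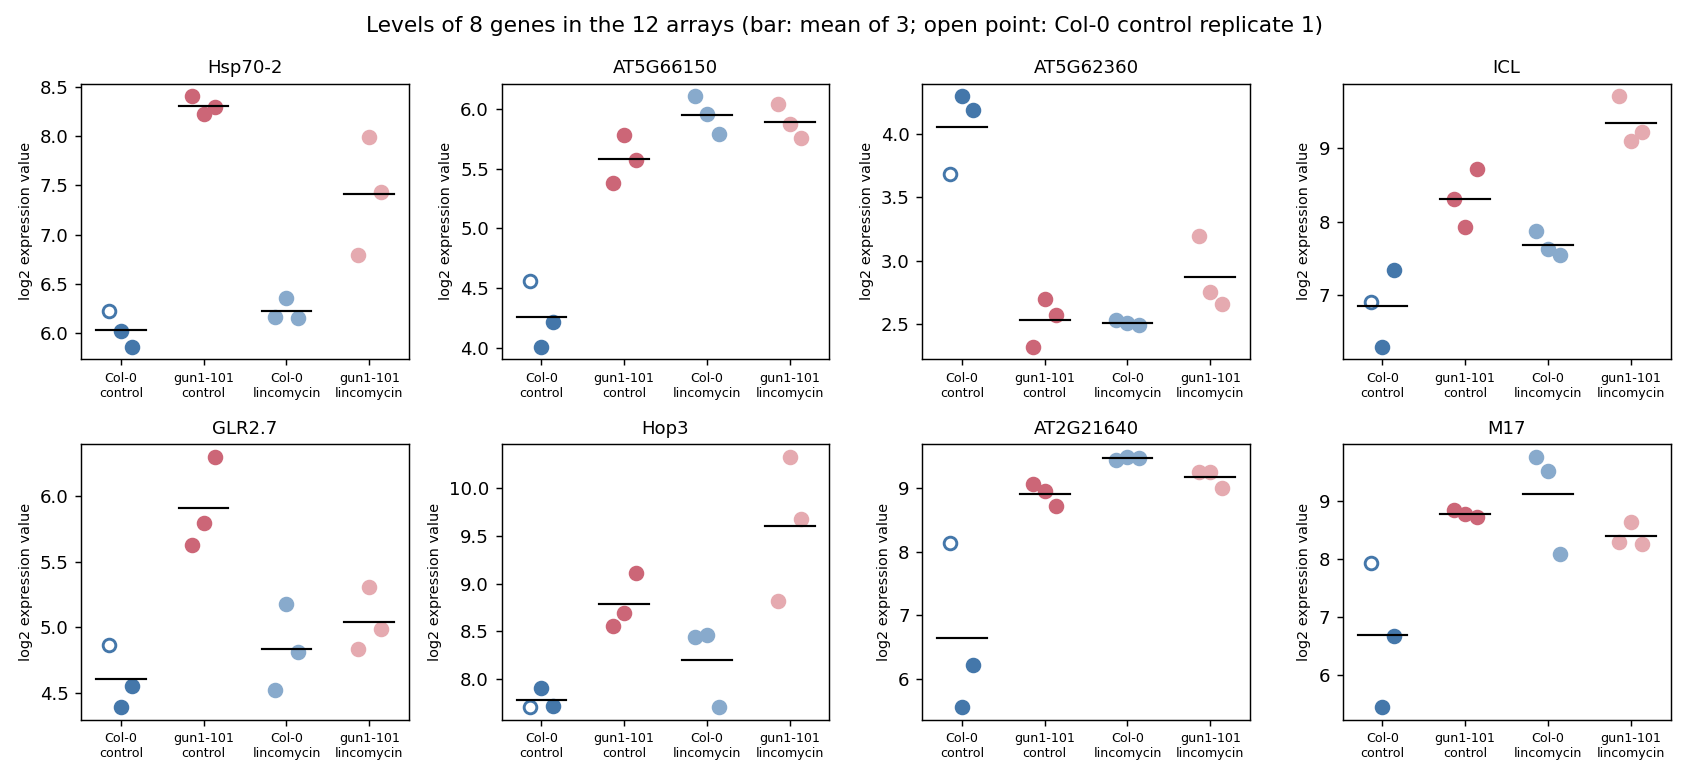
Log2 expression values of 8 genes in the 12 arrays, by group on the horizontal axis, with a bar at each group's mean of 3 and an open point for Col-0 control replicate 1. In Hsp70-2, AT5G66150 and AT5G62360, the 3 genes called, the control groups are apart, while in AT2G21640 and M17 the open point lies between the other Col-0 controls and the gun1-101 controls.

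The 22 measured cytosolic chaperones and small heat shock proteins, the lists around Hsp70-2, held 1 called gene. Of these 22, 15 had a positive difference and 8 did not overlap between the groups, all with the gun1-101 arrays above. Over all genes, 15.3% did not overlap, 8.18% with the gun1-101 arrays above. The median difference was 0.27 over the 22 genes and 0.016 over all genes tested. Over the 10 measured genes of the cytosolic chaperone list alone it was 0.17, with 6 positive and 4 negative. Without Col-0 control replicate 1 the median of these 10 was 0.035, against 0.029 over all genes. Hop3 (AT4G12400), a co-chaperone that links Hsp70 to Hsp90, had values of 7.71, 7.91 and 7.72 in the Col-0 controls and 8.55, 8.69 and 9.11 in the gun1-101 controls. The mutant arrays all lay above the wild type, with a difference of 1.00 (SE 0.33) that did not pass the test (limma adjusted p = 0.34; 0.124 without Col-0 control replicate 1). AT3G09440, on the cytosolic chaperone list, had values of 10.05, 9.76 and 9.67 against 10.48, 10.49 and 10.23. AT2G20560, on the same list, had values of 5.13, 4.75 and 5.22 against 5.65, 5.66 and 5.57. Their differences of 0.57 and 0.59 had adjusted p of 0.352 and 0.345. HSA32 (AT4G21320), a heat-stress protein that prolongs acquired thermotolerance, lay outside these lists, with 6.97, 6.88 and 6.76 against 7.28, 7.56 and 7.95 and an adjusted p of 0.31.

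Among the 12 measured small heat shock proteins, which hold unfolding proteins in a soluble state, 9 had a positive difference and the median was 0.37 with all arrays and 0.38 without Col-0 control replicate 1. None was called by limma in either fit, and 4 had an unadjusted p under 0.05, all positive. The furthest apart was AT5G51440, with 6.39, 7.00 and 7.01 in the Col-0 controls and 8.12, 7.91 and 8.18 in the gun1-101 controls. The gap between the groups was wider than the range within either, and the difference was 1.27 (SE 0.34, adjusted p = 0.303). AT5G37670 differed by 1.01 (adjusted p = 0.359), AT1G53540 by 0.83 (0.369) and AT2G29500 by 0.60 (0.352), each with all mutant arrays above all wild-type arrays. The cytosolic chaperone list also held CYS1, a cystatin and not a chaperone, singled out after its values were seen as its lone lower call without Col-0 control replicate 1 (log2 difference -0.66, against -0.46 with all arrays). It held BIP1 too, a chaperone of the endoplasmic reticulum, so the counts above are not over cytosolic chaperones alone.

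None of the 13 measured of 65 listed nuclear thylakoid genes was called. Of these 13 genes of the light-harvesting antenna, both photosystems, electron transport, NDH complex and ATP synthase, 12 had a negative difference, with a median of -0.24 and a range from -0.51 to 0.16. By limma 2 had an unadjusted p under 0.05, and in 8 the groups did not overlap, with the gun1-101 arrays below, as in 7.16% of all genes. LHB1B2 (AT2G34420), which binds chlorophyll in the main antenna of photosystem II, had values of 11.56, 11.77 and 11.76 in the Col-0 controls and 11.31, 11.28 and 11.10 in the gun1-101 controls. LHCB4.2 (AT3G08940), a minor antenna protein of the same photosystem, had 11.32, 11.68 and 11.78 against 11.07, 11.16 and 11.27. In both genes the arrays of the mutant lay just under those of the wild type, with Col-0 control replicate 1 the lowest of its group. The differences were -0.47 (SE 0.25, adjusted p = 0.431) and -0.42 (SE 0.22, adjusted p = 0.422).

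PSB27 (AT1G03600), which takes part in photosystem II assembly, had the most negative difference of these 13 genes, -0.51 (SE 0.19, limma adjusted p = 0.358), and 0.0571 without Col-0 control replicate 1. PSAE-1 (AT4G28750), a subunit on the stromal side of photosystem I, was at 11.23, 11.30 and 11.48 against 11.01, 11.04 and 11.09. NdhN (AT5G58260) and NdhU (AT5G21430), subunits of the thylakoid NDH complex, each differed by -0.41, with adjusted p of 0.38 and 0.406. Transcripts of this kind are those that GUN1 mutants retain under plastid stress, and none of the 13 was called without lincomycin, with or without Col-0 control replicate 1.

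Tetrapyrrole synthesis supplies chlorophyll and haem. Of its 8 measured genes, 7 had a negative difference (median -0.19), none was called, and 1 did not overlap between the groups, a share near the 7.16% of all genes with the gun1-101 arrays below. That gene was PORB (AT4G27440), which reduces protochlorophyllide in the light, with 11.09, 11.21 and 11.18 in Col-0 against 10.88, 11.01 and 10.85 in gun1-101. HEME2 (AT2G40490), a uroporphyrinogen decarboxylase, differed by -0.33 (adjusted p = 0.416). The 4 measured Calvin cycle genes had a median of 0.033 and the 5 of photorespiration a median of -0.002, with none called. By limma none of these 17 genes had an unadjusted p under 0.05. Without Col-0 control replicate 1, AT2G35120 of the photorespiration list was called lower (log2 difference -0.72, adjusted p = 0.0415). It read 9.20, 10.10 and 9.91 in the Col-0 controls and 9.31, 9.24 and 9.29 in the gun1-101 controls, so that array lay with the mutant. Plastid chaperones and proteases (6 genes) had a median of 0.13, and HSP93-III (AT3G48870), a chaperone of the Clp family, differed by 0.20 (adjusted p = 0.436). The 5 plastid RNA editing factors, which convert C to U in plastid transcripts, all had a positive difference, from 0.098 to 0.66, with none called and 1 at an unadjusted limma p under 0.05.

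Transcripts of the plastid genome itself had differences close to 0. All 63 measured plastid genes lay between -0.07 and 0.11, with a median of 0.02. Of these, 39 encode photosynthesis proteins (median 0.026) and 18 the plastid's own expression machinery (median 0.009). No plastid gene was called or had an unadjusted limma p under 0.05, and 0 were called without Col-0 control replicate 1. The 17 measured genes of the mitochondrial genome all had a positive difference, from 0.02 to 0.51 with a median of 0.27, and 0.43 without Col-0 control replicate 1. For nad6, a subunit of respiratory complex I, the Col-0 controls were at 10.79, 9.98 and 9.96 and the gun1-101 controls at 10.67, 10.86 and 10.75. Col-0 control replicate 1 lay among the mutant arrays, and the groups overlapped in all 17 genes. Without that array, 3 of the 17 were called (nad6, ccb203 and ccb382, the last 2 named after their values were seen, which act in cytochrome c maturation), where 6.37% of all genes were called and 2.59% called higher.

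**Figure D2:**
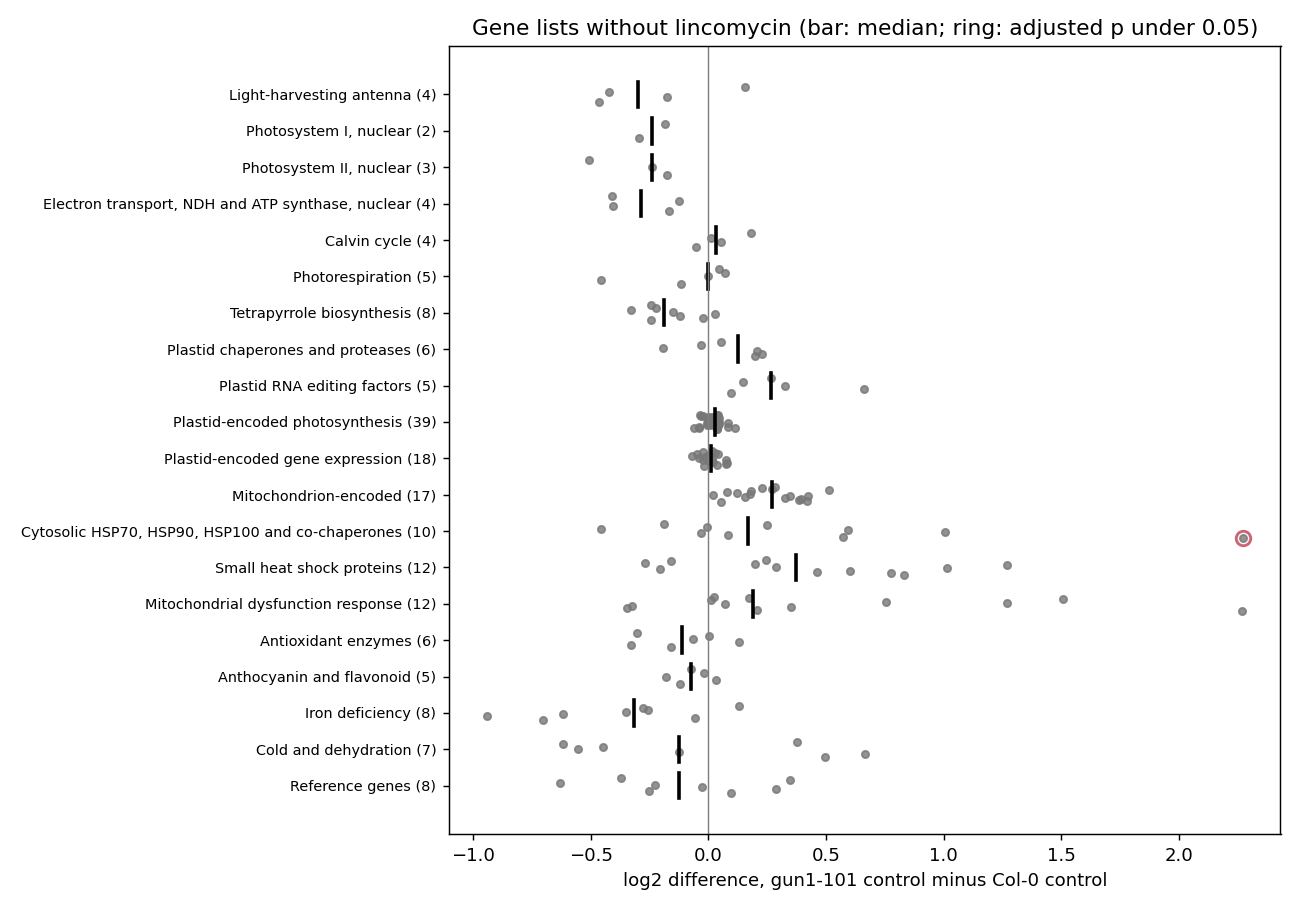
Log2 difference of gun1-101 control minus Col-0 control (horizontal axis) for each measured member of 20 gene lists, with the number measured in brackets, a bar at the list's median and a ring around called genes. Hsp70-2 carries the only ring, plastid-encoded genes lie within -0.07 and 0.11, and the 17 mitochondrion-encoded genes all lie above 0.

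The mitochondrial dysfunction response is a group of nuclear genes induced when respiration is disturbed. Of its 12 measured members, 10 had a positive difference (median 0.19) and none was called with all arrays, while 4 had an unadjusted limma p under 0.05. AT2G21640 had values of 8.14, 5.56 and 6.22 in the Col-0 controls and 9.06, 8.95 and 8.72 in the gun1-101 controls. The mutant arrays lay close together above the wild type, whose replicate 1 was 2.26 above the mean of the other 2. The difference was 2.27 (SE 0.47, adjusted p = 0.235), and without that array it was 3.02 (SE 0.19, adjusted p = 9.25e-05). AT2G04050 had 8.12, 5.79 and 6.16 against 8.60, 8.48 and 7.50, and AT5G43450 had 8.63, 7.56 and 7.66 against 8.80, 8.80 and 8.52. In both, Col-0 control replicate 1 lay inside the range of the mutant, and without it the differences were 2.22 (adjusted p = 0.00876) and 1.09 (adjusted p = 0.00903).

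Of 8 measured iron deficiency genes, 7 had a negative difference (median -0.31, and -0.54 without Col-0 control replicate 1), with none called and 1 at an unadjusted limma p under 0.05. AT1G47400 had 7.83, 9.39 and 8.84 against 7.62, 7.80 and 7.83, and its groups met at 7.83, apart only beyond the digits given (7.16% of all genes did not overlap with the gun1-101 arrays below). BHLH101 (AT5G04150), a transcription factor of iron uptake, had 5.91, 7.37 and 7.35 against 5.60, 6.56 and 6.35, and was lower without Col-0 control replicate 1 by 1.19 (adjusted p = 0.0374). The 7 cold and dehydration genes were split, with 3 positive and 4 negative. COR15A and COR15B, which protect the chloroplast in the cold, differed by 0.49 (adjusted p = 0.452) and 0.67 (adjusted p = 0.421). With Col-0 control replicate 1 left out, COR15A was called higher (0.86) and COR47, named after its values were seen, was called lower (-0.80). Antioxidant enzymes (6 genes, median -0.11) and anthocyanin genes (5 genes, median -0.08) had no called member and none at an unadjusted limma p under 0.05. The 8 reference genes, usually taken as stable, had a median of -0.13 and ranged from -0.63 to 0.35, with none called. Of these 8, 2 had an unadjusted limma p under 0.05, both negative, where 12.7% of all genes had such a p in either direction. In 2 the groups did not overlap, with the gun1-101 arrays below, as in 7.16% of all genes.

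Beyond the lists, the genes with a symbol and the highest moderated t included ICL (AT3G21720), isocitrate lyase of the glyoxylate cycle, which turns seed lipid into sugar. It read 6.90, 6.30 and 7.34 in the Col-0 controls and 8.30, 7.93 and 8.71 in the gun1-101 controls, a difference of 1.46 (SE 0.27, limma adjusted p = 0.189). GLR2.7 (AT2G29120), a glutamate receptor-like channel, had 4.87, 4.39 and 4.56 against 5.63, 5.80 and 6.30 (2.47-fold, adjusted p = 0.165). Neither gene overlapped between the groups, and both were called without Col-0 control replicate 1, at adjusted p = 0.0374 and 0.0264. Prx37 (AT4G08770), a secreted peroxidase, had 8.68, 8.35 and 8.59 against 9.27, 9.31 and 9.04 (difference 0.67, adjusted p = 0.223). Other genes at this end were DL1B, a dynamin-like protein (0.80), LOJ, a pentatricopeptide repeat protein (0.75), ATMND1, a meiotic recombination protein (0.62), and scpl16, a serine carboxypeptidase-like protein (1.06), with adjusted p of at least 0.3.

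At the other end, the lowest moderated t among genes with a symbol was that of APS3 (AT4G14680), an ATP sulfurylase at the entry of sulfate assimilation. It had 8.06, 8.18 and 8.10 in the Col-0 controls and 7.39, 7.56 and 7.53 in the gun1-101 controls, a small gap of -0.62 (SE 0.11) between tight groups (adjusted p = 0.165, and 0.0353 without Col-0 control replicate 1). SWEET17 (AT4G15920), a fructose transporter of the vacuole, had 9.50, 9.66 and 9.77 against 9.07, 8.95 and 9.04 (difference -0.62, adjusted p = 0.274). ATL5 (AT3G62690), a RING-type ubiquitin ligase, differed by -0.97 (adjusted p = 0.3) and RALFL32 (AT4G14010), a small secreted signal peptide, by -0.89 (adjusted p = 0.303). The remaining 6 were LCR43 (-0.64), CKS (-0.49), scpl46 (-0.53), YLMG1-2 (-0.78), LSM6B (-0.44) and EXPA4 (-0.62). In all 20 of these genes the control groups did not overlap, as in 15.3% of all genes. Without Col-0 control replicate 1, 8 of the 10 high and 8 of the 10 low ones were called. Over all genes, 2.59% were called higher and 3.78% lower in that fit. The control values that chose the 20 genes enter both counts, which favours such results, so the counts are a description.

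Without regard to a symbol, the largest differences were sought among genes called without Col-0 control replicate 1 whose control groups did not overlap even with it. These were 405 of the 1054 genes (38.4%), 179 higher and 226 lower, where 15.3% of all genes did not overlap. Since the first array was left out to choose them, the values below are a description. AT1G66100 was furthest down, with 6.61, 8.44 and 8.55 in the Col-0 controls and 4.43, 4.70 and 6.10 in the gun1-101 controls, a difference of -2.79 (SE 0.53, limma adjusted p = 0.189 with all arrays). Of the other low genes, AT4G27657 differed by -1.36, AT2G47880 by -1.25, AT1G70880 by -1.25, AT1G65870 by -1.21 and AT5G07475 by -1.21. The rest of the 12 lowest were AT5G62360, AT5G42530, AT1G06830, AT5G46530, AT2G30230 and AT1G22690, whose differences ran from -1.53 to -1.10.

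At the high end after Hsp70-2 and AT2G21640 came M17 (AT2G41260), AT5G48570, AT5G03495 and AT3G48346. AT5G48570 had 6.84, 6.55 and 6.55 against 8.45, 8.65 and 8.91, a 4.06-fold gap in which replicate 1 lay with its group (difference 2.02, SE 0.41, limma adjusted p = 0.223, and 0.0218 in the fit to the 6 control arrays). AT5G60250 had 7.28, 6.46 and 6.76 against 8.14, 8.27 and 8.04 and had the smallest unadjusted p of the genes not called (difference 1.32, SE 0.19, adjusted p = 0.0567). AT3G48346 differed by 1.76 (adjusted p = 0.128), AT5G03495 by 1.83 (0.189), AT1G72660 by 1.48 (0.303) and AT5G23480 by 1.36 (0.303). The 12 highest also held AT5G66150, ICL and GLR2.7.

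Each named gene was also measured in the 6 lincomycin arrays, which share no array with the controls, so the genotype difference there stands beside the untreated one. Over all genes, 1585 (9.58%) were called between the genotypes with lincomycin, 848 higher (5.12%) and 737 lower (4.45%), and 1153 genes (6.97%) had a genotype difference that itself differed between the conditions (the interaction). Of the treated Col-0 arrays, replicate 3 had the lowest mean correlation with its group (0.9855, against 0.9887 and 0.9896). Its median over the probe sets listed before any with a gene was 4.72, against 5.07 and 5.14. Without it, 2986 genes had a called interaction. Hsp70-2 was higher in gun1-101 with lincomycin too, at 6.16, 6.35 and 6.15 in Col-0 and 6.80, 7.99 and 7.43 in gun1-101 (difference 1.19, SE 0.23, limma adjusted p = 0.00851). The interaction of -1.08 did not pass the test with all arrays (adjusted p = 0.0673) and passed it without Col-0 control replicate 1 (-1.18, adjusted p = 0.0343). ICL was higher in the mutant with lincomycin by 1.66 (adjusted p = 0.00253), Prx37 by 0.91 (0.00147), HSA32 by 0.93 (0.0133), AT5G23480 by 1.50 (0.0186) and AT1G72660 by 1.74 (0.0181). Their interactions, between 0.15 and 0.26, were not called.

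AT5G66150 and AT5G62360 were not called between the genotypes on lincomycin. AT5G66150 was at 6.10, 5.96 and 5.79 in treated Col-0 and at 6.04, 5.87 and 5.76 in treated gun1-101 (difference -0.06, adjusted p = 0.863). AT5G62360 was at 2.53, 2.50 and 2.49 against 3.20, 2.75 and 2.66 (difference 0.36, adjusted p = 0.254). Both treated groups thus lay near the level of the untreated mutant or past it. For both genes the interaction was called (limma adjusted p = 0.00685 and 0.00228), and for AT5G62360 its size is limited by the dim values too. Of the 24 genes with the largest differences among those called without Col-0 control replicate 1 with groups apart, 6 of the 12 high and 5 of the 12 low ones had a called interaction. The control values that chose them enter the interaction as well, which favours such calls, so this count is a description. For AT5G60250 and AT5G03495 the direction turned, with gun1-101 lower on lincomycin by 1.04 (adjusted p = 0.00565) and by 2.50 (adjusted p = 0.00115). For AT4G27657 and AT1G65870 it turned the other way, with gun1-101 higher on lincomycin by 1.33 (adjusted p = 0.0342) and 1.17 (adjusted p = 0.0256).

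The thylakoid genes differed between the conditions. LHB1B2 was at 7.02, 6.96 and 8.02 in treated Col-0 and at 10.37, 10.95 and 10.86 in treated gun1-101, where the untreated mutant was slightly below the wild type. The difference of 3.39 (limma adjusted p = 1.03e-05) stood against -0.47 without lincomycin, and the interaction was called (adjusted p = 0.000149). All 13 measured thylakoid genes were called higher in gun1-101 on lincomycin (median 1.26), and all 13 had a called interaction. Of the 22 chaperone and small heat shock genes, 12 were called higher on lincomycin and 4 had a called interaction, among them AT1G53540 with 3.59 on lincomycin against 0.83 without it. Of the 63 plastid genes, 45 were called lower in gun1-101 on lincomycin (median -0.59), against a median of 0.02 without it.

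**Figure D3:**
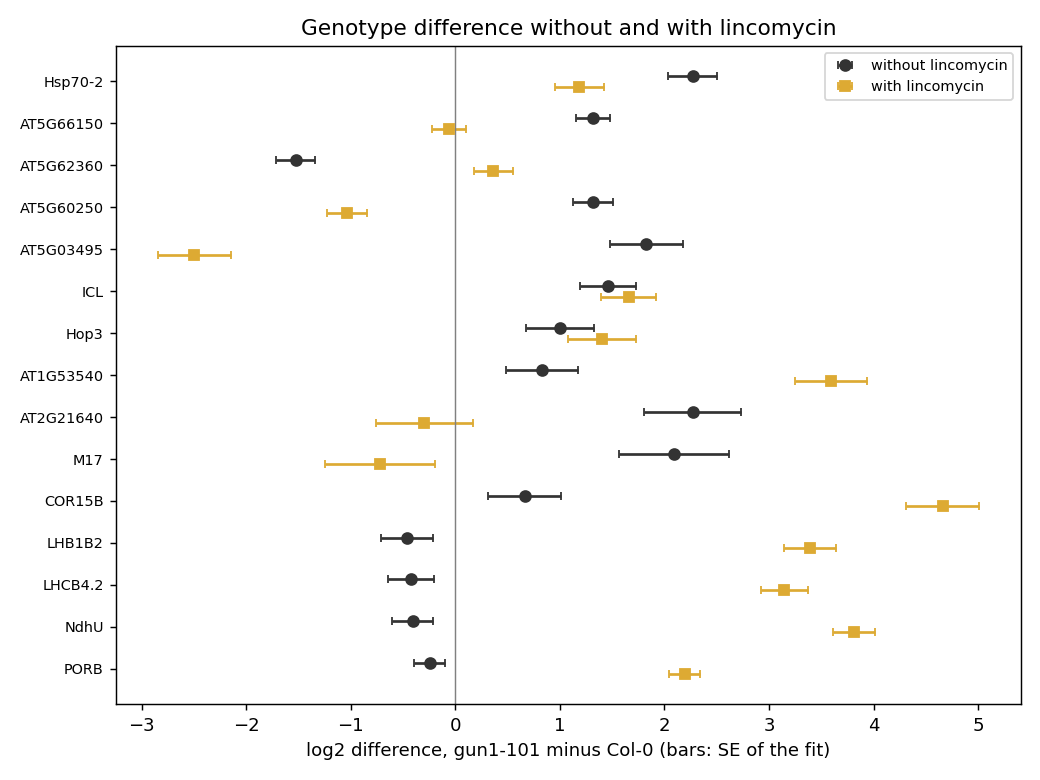
Log2 difference of gun1-101 minus Col-0 for 15 named genes, without lincomycin (dark circles) and with it (yellow squares), with bars for the SE of the limma fit. Hsp70-2, ICL and Hop3 lie above 0 in both conditions, while the 4 lowest genes, of the antenna, the NDH complex and chlorophyll synthesis, lie just below 0 without lincomycin and above 2 with it.

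The number of called genes rested on Col-0 control replicate 1. For each of the 1054 genes called without it, its position was taken on a scale from 0 (the mean of the other Col-0 controls) to 1 (the mean of the gun1-101 controls). The median position was 0.94, with quartiles at 0.75 and 1.13. The array lay nearer to the mutant's mean in 954 of the 1054 genes (90.5%) and past it in 412. The arrays that chose these genes also set the scale, which favours positions toward the mutant, so these counts are a description. Once it was put back, the groups overlapped in 61.6% of the 1054 genes and did not overlap in 38.4%, against 15.3% of all genes not overlapping. Not every gene placed the array with the mutant. In the called heat shock gene AT5G02490 it read 6.22, against 8.22 to 8.41 in the gun1-101 controls. In AT5G48570 it read 6.84, against 8.45 to 8.91. In the antenna gene AT2G34420 it read 11.56, the lowest of its group but above every gun1-101 control. The lincomycin arrays of both genotypes read at most 10.95 in that gene. Whether the sample was exchanged or differed for a technical reason was not tested. Of the 1054 genes, 228 (21.6%) had the same sign of difference on lincomycin, against 36.4% of all genes. On lincomycin 28 were called in the same direction and 73 in the opposite one, together 9.58% of them, the same share as of all genes.

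**Figure D4:**
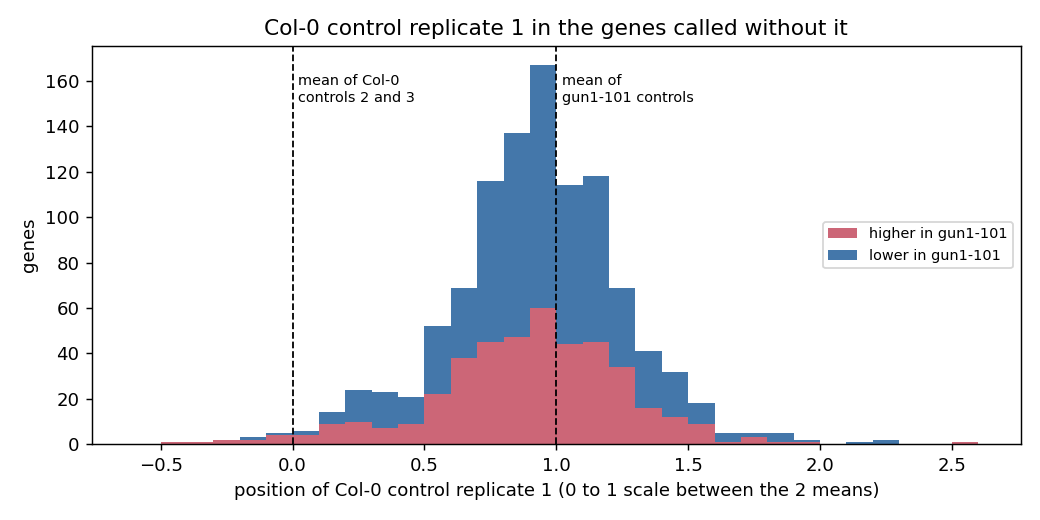
Number of genes (vertical axis) by the position of Col-0 control replicate 1 (horizontal axis) for the 1054 genes called without it, coloured by direction in gun1-101. Dashed lines mark the mean of the other Col-0 controls at 0 and of the gun1-101 controls at 1, and the median is at 0.94.

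The genes in which Col-0 control replicate 1 lay furthest from its group were taken from both ends, furthest below and furthest above. In the fit without that array, those low in it were lower in gun1-101 and those high in it were higher. The other Col-0 controls enter both the choice and that difference, which favours such a match. EXO (AT4G08950), an extracellular growth protein, read 5.65 in Col-0 control replicate 1 and 8.79 and 9.43 in replicates 2 and 3. Its gun1-101 controls ran from 5.79 to 8.62. ZAT7 (AT3G46090), a zinc finger factor of stress responses, was at 3.09 against 6.40 and 6.37, with gun1-101 controls at 3.12, 3.45 and 6.16. In both genes replicate 1 of each genotype was the lowest of its group. EXLA2, PUP18 and IAA30 were likewise low in it. M17, XIJ, RXW8, AGL50 and CYP78A9 were high in Col-0 control replicate 1, and in RXW8 the gun1-101 controls were spread too, at 9.37, 9.00 and 8.39. Of these 10 genes, IAA30 (-1.87), XIJ (1.06) and M17 (2.72) were called without the array, where 6.37% of all genes were called. The array that chose the 10 genes is the one left out, so this count is a description.

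Gene length moved with the genotype difference and with this array. Lengths came from a RefSeq gene table of assembly TAIR10.1 for 16436 nuclear coding genes. Across genes, which are not independent replicates, Spearman's rho of length with the log2 difference was 0.235 with all arrays, 0.251 without Col-0 control replicate 1 and -0.199 for the genotype difference on lincomycin. The same rho for Col-0 control replicate 1 minus the other Col-0 controls was 0.212. In the longest of 10 equal bins of genes the median difference was 0.18 with all arrays and 0.28 without that array, against 0.016 and 0.029 over all genes. In the shortest bin, with a median length of 483.5 bases, it was 0.028 and 0.047. Genes called higher without the array had a median length of 2754 bases and those called lower 1431.5 bases, against 1909 bases over all. With each array's trend on length removed, the 3 genes stayed called, and 434 were called without Col-0 control replicate 1. The part of length in the other differences was not tested.

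**Figure D5:**
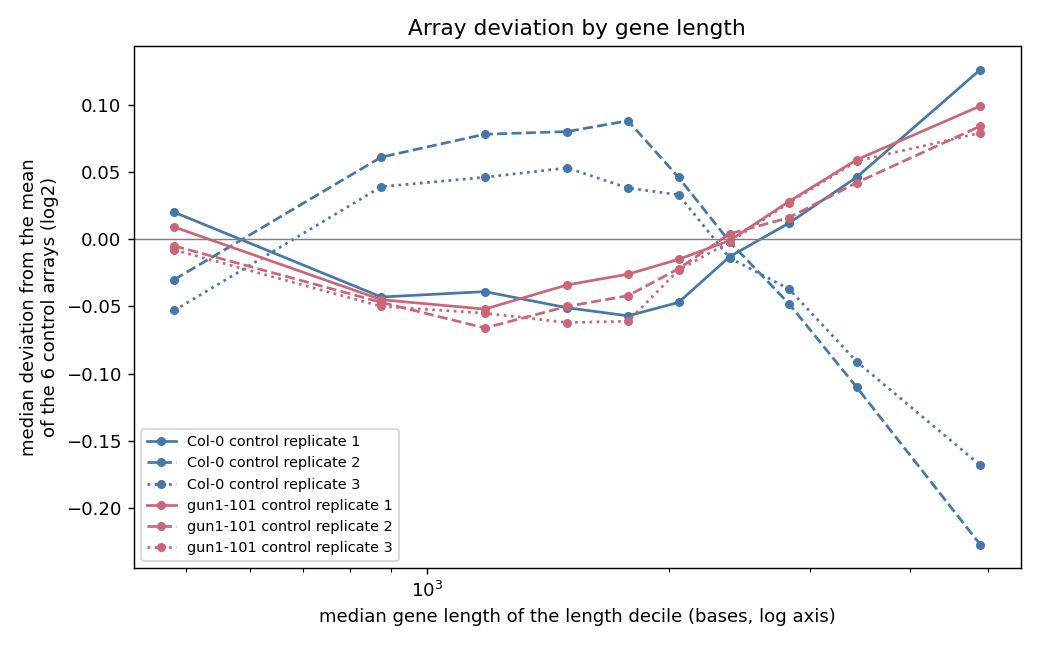
Median deviation of each control array from the mean of the 6 control arrays (vertical axis, log2) in 10 bins of gene length (horizontal axis, median length in bases, log axis). Col-0 control replicates 2 and 3 reach -0.23 and -0.17 in the longest genes, while Col-0 control replicate 1 and the 3 gun1-101 controls lie between 0.08 and 0.13 there.

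Markers of tissues were set beside the comparison. Of 10 root markers 2 were measured. PYK10, an abundant protein of root and hypocotyl, was between 12.25 and 12.40 in all 6 control arrays. EXPA7, an expansin of root hairs, was at 6.01, 7.50 and 7.60 in the Col-0 controls and 6.54, 6.82 and 6.80 in the gun1-101 controls (difference -0.31, limma adjusted p = 0.684), and was called lower without Col-0 control replicate 1 (-0.83, adjusted p = 0.0374). That array lay 1.54 below the mean of the other Col-0 controls in EXPA7, and the part of root tissue in the differences was not tested. Of 14 seed and embryo markers 2 were measured. M17, a late embryogenesis protein, was at 7.93, 5.45 and 6.67 in the Col-0 controls and 8.84, 8.77 and 8.72 in the gun1-101 controls (difference 2.09, SE 0.53, limma adjusted p = 0.303), and was called higher without Col-0 control replicate 1 (2.72, adjusted p = 0.0264). PAP85, a seed storage protein, was at 6.12, 5.18 and 6.86 against 6.71, 6.87 and 7.02 (difference 0.82, adjusted p = 0.367), so its groups overlapped. ICL, which acts in the use of seed lipid, had a difference of the same sign, and the part of seed tissue in these differences was not tested. Of 11 guard cell and stomatal markers 4 were measured, with a median of -0.29, none called and 2 at an unadjusted limma p under 0.05. FMA, a guard cell fate factor, was at 7.80, 8.06 and 8.10 against 7.55, 7.56 and 7.63 (adjusted p = 0.392), and AT1G22690 was at 8.81, 10.47 and 10.17 against 8.80, 8.68 and 8.69. In the latter Col-0 control replicate 1 lay at the level of the mutant. TRY, the epidermal marker measured, differed by -0.70 (adjusted p = 0.391). No vascular or flower marker of the lists was measured.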

How the data were processed

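Biotinylated cRNA of total RNA from whole seedlings was measured on Affymetrix arrays, as the labels' protocols state. The values used are the deposited log2 values, which the submitters' processing notes say the authors made by RMA (Affymetrix Expression Console 1.3). This method corrects background, forces all arrays to a common distribution and summarises probe sets, so a shift shared by most transcripts is removed. The sources used here give neither array design nor batches.

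Of 38408 probe sets, the platform annotation gave 1 gene to 16722, several to 759 and none to 20927. The probe set with the highest mean was kept per gene (148 genes had more than 1), which left 16548 genes, 1805 with a symbol. Of these, 43 had no match in the RefSeq gene table (TAIR10.1) used for names and lengths. In R 4.3.3, limma 3.58.1 fitted 1 mean for each group over 12 arrays (lmFit, eBayes; 8 residual and 3.885 prior degrees of freedom), without a replicate block, and tested two-sided. The script was tested on simulated data. The labels call the arrays biological replicates, 3 per group, and that number limits the precision. An exact permutation test of 3 against 3 arrays cannot go below 0.1. SE is from the fit.

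Members, lists and rules were chosen with earlier results of these data known. Named were every called gene, the 12 highest and 12 lowest of those called without Col-0 control replicate 1 with groups apart, the 10 highest and 10 lowest moderated t with a symbol, up to 4 genes per list and the 10 genes in which that array lay furthest out. Organelle lists, symbol families and the length settings were added after seeing the data. Alternatives are in the closing section. No sequences are printed, as none were in the tables used here.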

Additional observations from a re-analysis of the deposited data

Results flagged for a closer look

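The genotype difference of 30 named genes differed between untreated and lincomycin-treated seedlings by limma's interaction test (adjusted p under 0.05). Over all genes, 6.97% had such a difference. Many named genes were chosen by their control values, which enter the interaction and favour such calls, so this count is a description. The values below are the log2 difference with lincomycin minus that without it. A positive value means that gun1-101 stood higher against Col-0 on lincomycin than without it.

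Among positive values, thylakoid genes had 4.22 for NdhU, 3.85 for LHB1B2, 3.57 for LHCB4.2, 2.89 for PSAE-1, 1.84 for NdhN and 1.77 for PSB27. In chlorophyll synthesis they were 2.44 for PORB and 1.46 for HEME2. The cold-regulated COR15B and COR15A had 4.00 and 1.71, and the small heat shock gene AT1G53540 had 2.76. TRY, an epidermal marker, had 3.07. Further positive values were 2.70 for AT4G27657, 2.38 for AT1G65870, 2.35 for AT1G22690, 1.89 for AT5G62360, 1.49 for YLMG1-2, 1.32 for AT2G47880, 0.71 for LSM6B and 0.59 for APS3.

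Negative values were -4.33 for AT5G03495, -2.81 for M17, -2.61 for AT3G48346, -2.57 for AT2G21640, -2.35 for AT5G60250, -1.85 for scpl16, -1.38 for AT5G66150, -1.14 for LOJ, -1.08 for ATMND1 and -1.05 for DL1B. In M17 and AT2G21640 Col-0 control replicate 1 lay 1.88 and 2.26 above the mean of the other Col-0 controls.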

How the results depend on the processing

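The calls depended on single arrays. Leaving out 1 array at a time gave between 0 and 1054 called genes, of which between 0 and 311 were called by 2-fold or more (3 of 3 with all arrays), and between 379 and 3876 genes with a called interaction (1153 with all arrays). The 1054, 311 and 3876 were without Col-0 control replicate 1, and the next highest interaction count, 2986, was without Col-0 lincomycin replicate 3. The counts of 0 were without Col-0 control replicate 2 or 3 or any gun1-101 control, with 1074, 1274, 1572, 1522 and 1571 genes at an unadjusted limma p under 0.05. Without Col-0 control replicate 1 the 5 remaining control arrays alone gave 1627 called genes, 354 by 2-fold or more. Leaving out Col-0 lincomycin replicate 3 as well gave 2854, 406 and 5376 interactions, and array weights gave 1997, 264 and 5534. Using every probe set, named or not, gave 5 called, all by 2-fold or more. A threshold of 0.1 gave 5 called, and an unadjusted p under 0.05 gave 2105. The array covariate, the median of the probe sets before the first with a listed gene, left 527 interactions.

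Of settings chosen after seeing the data and without Col-0 control replicate 1, removing the length trend gave 434 called, 156 by 2-fold or more and 3043 interactions, and the array covariate gave 0, 0 and 19, with 907 genes at an unadjusted limma p under 0.05. In the latter the covariate was lower in both Col-0 controls left (4.50) than in every gun1-101 control (4.88 or more), so it and the genotype can hardly be told apart. In it the direction turned to 0.089 for LHCB4.2, 0.29 for LHB1B2, 0.56 for PSAE-1, 0.049 for HEME2, 1.19 for PUP18, 1.35 for ZAT7, 1.44 for EXO, 1.03 for EXLA2, -0.14 for RXW8, -0.019 for PYK10 and 0.47 for CYP78A9. The last 3 and others close to 0 or set by single arrays turned elsewhere too, none of them called with all arrays. CYP78A9 turned to 0.34 without Col-0 control replicate 1, in the 5 other control arrays alone and without Col-0 lincomycin replicate 3 as well, to 0.27 with array weights and to 0.39 without that control and the length trend, and leaving out 1 array gave -0.40 to 0.34. Leaving out 1 array gave -0.36 to 0.47 for RXW8, -0.16 to 0.66 for AGL50, -0.001 to 0.078 for PYK10 and -1.78 to 0.14 for EXO. With all arrays, the array covariate turned RXW8 to -0.28, AGL50 to -0.014, PYK10 to -0.012, EXO to 0.35, EXLA2 to 0.043 and EXPA7 to 0.018, and removing the length trend turned RXW8 to -0.22 and PYK10 to -0.056 (-0.039 without that control). The cause was not tested. Hsp70-2 kept its call in 21 of 27 alternatives, AT5G66150 in 17 of 27 and AT5G62360 in 16 of 26. Over 82 named genes, 1906 of 2207 comparisons with an alternative kept direction and side of the threshold, 240 passed it newly, 26 no longer did and 35 turned direction. Over 27 list medians, 24 of 729 comparisons with an alternative moved by more than the spread of replicates.

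The replicate block left 1 called gene, Hsp70-2, by 2-fold or more, while AT5G66150 and AT5G62360 were both at a limma adjusted p of 0.0637. Same-numbered control arrays deviated together at r = 0.205, 0.039 and 0.281 across genes. Each gun1-101 control correlated best with its own number, for replicate 2 only by 0.039 against 0.031. Whether the arrays were paired was not tested. These values are from the data and not from the design, as the labels give a replicate number and no more. The interaction was not computed in fits to control arrays alone.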
